A study of Ipomoea batatas with 12 samples.

Results

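The comparison of IbPep1 with water covered 8 of the 12 messenger RNA libraries made from sweet potato (Ipomoea batatas, cultivar Tainong 57) leaves, 4 per group, chosen by the treatment in their source names, and all 32301 genes of the count table. All plants had been grown from scions, and the third leaf was exposed for 1 h either to water or to the peptide. No age beyond 3 weeks in a phytochamber, no genetic modification and no peptide dose is given for either group. The remaining 4 libraries received IbHypSysIV, another peptide, and appear here only as levels beside the named genes. A separate treatment field counts from IbPep1 to IbPep4 over the 4 peptide libraries, whereas their source name is the same, and the source name was followed.

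Plant elicitor peptides are short fragments cut from larger precursor proteins. In Arabidopsis they are bound at the cell surface by leucine-rich repeat receptor kinases, and their perception is followed by calcium influx, reactive oxygen production, MAP kinase activation and the expression of jasmonate, ethylene and other defence genes. They are therefore grouped with the damage-associated molecular patterns, signals that a plant makes from its own wounded or attacked tissue. Leaves are exposed to herbivores and pathogens, and the question put to these libraries was which leaf transcripts had changed 1 h after the peptide was given.

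The deposited table does not pair its gene identifiers with names, and 0 of the 32301 identifiers were found in the gene table of a sweet potato reference assembly that was searched. Genes can therefore be described here by level, direction, size of change and identifier, but not by function, and no leaf or other cell type marker could be looked up. For the same reason no sequence is shown.

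Total counts were 20243058 to 23898419 in the water libraries and 19862106 to 23153078 with IbPep1, so depth did not separate the groups. Between 26549 and 26945 genes had a count in a water library and between 26866 and 27267 in an IbPep1 library. A level of 3 counts was taken as a floor but was not used to remove genes from the test. It corresponded to 0.126 to 0.151 CPM, the usual measure of a count relative to its library total, here without further scaling. That level allows for counting error alone, because PCR copies of a molecule are counted as separate reads.

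The libraries did not fall into their 2 groups cleanly. On the first principal component, which held 46.6% of the variance of log2 CPM, water replicates 1, 2 and 4 lay at -49.7, -72.5 and -67.1. Water replicate 3 lay at 25.4, among the IbPep1 libraries, which lay at 33.8, 46.3, 58.6 and 25.2. Its mean correlation across genes was 0.942 with the other water libraries and 0.956 with the IbPep1 libraries, whereas water replicates 1, 2 and 4 had 0.967 to 0.970 with their own group and 0.935 to 0.947 with IbPep1. On the second component (18.1% of the variance) water replicate 3 at 62.2 and IbPep1 replicate 3 at 30.4 stood on one side, and the other 3 IbPep1 libraries at -38.6 to -22.1 on the opposite side. Because of this the main counts are given both with all 8 libraries and without water replicate 3.

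**Figure D1:**
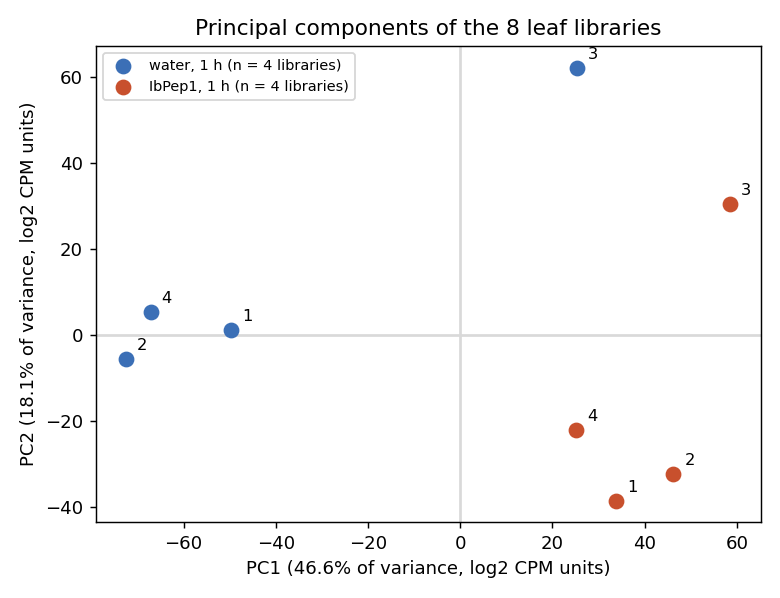
Principal components of log2 CPM over the genes tested, 1 point per library with its replicate number. Water replicate 3 sits at 25.4 on the first component, on the side of the 4 IbPep1 libraries, while the other 3 water libraries lie at -72.5 to -49.7.

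With all 8 libraries, 2519 of 22680 genes tested differed between IbPep1 and water, which is 11.1% (edgeR's quasi-likelihood test, Benjamini-Hochberg adjusted p under 0.05). Of these, 1268 rose (5.59% of the genes tested) and 1251 fell (5.52%). The 2 directions were thus nearly equal in number, but they were not equal in size. At least 2-fold changes were found in 525 of the genes that rose and 391 of those that fell, and 70 of the 176 genes that changed at least 4-fold fell. Changes of 8-fold or more were found in 23 genes upward and 10 downward. Called genes rose by a median of 1.85-fold and fell by a median of 1.73-fold, while the median log2 fold change over all genes tested was 0.002. In all, 7241 genes had an unadjusted p under 0.05. In RNA from whole leaves, fewer cells of a type and less of a transcript per cell cannot be told apart.

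The genes that rose held 2.89% to 4.18% of the TMM-scaled reads of a water library and 5.66% to 6.27% of an IbPep1 library. The genes that fell held 5.73% to 7.58% in water and 3.70% to 3.96% with IbPep1. In both sums the water library nearest to IbPep1 was replicate 3, at 4.18% and 5.73%, against 2.89% to 3.22% and 7.21% to 7.58% in the other 3. These sums describe the genes called and give no separate support, since the same libraries chose them.

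Without water replicate 3, 6991 of 22967 genes tested were called, or 30.4%. Of these 3589 rose (15.6%) and 3402 fell (14.8%), and 9901 genes had an unadjusted p under 0.05. All 2519 genes called with 8 libraries were among them, each in the same direction, and made up 36.0% of the longer list. Their median change, taken without sign, was 0.84 on the log2 scale with water replicate 3 and 0.92 without it. The 4-fold class grew to 331 genes up and 164 down, and the 8-fold class to 76 and 42. The imbalance toward large rises was therefore present in both fits. The lists share 7 libraries, so neither checks the other. Water replicate 3 was set aside because its levels in these same data lay near IbPep1. Leaving it out lowers the spread in water and widens the contrast, and the p-values of that fit do not allow for this choice. The 30.4% is therefore likely too high and is not a share at a controlled error rate.

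**Figure D2:**
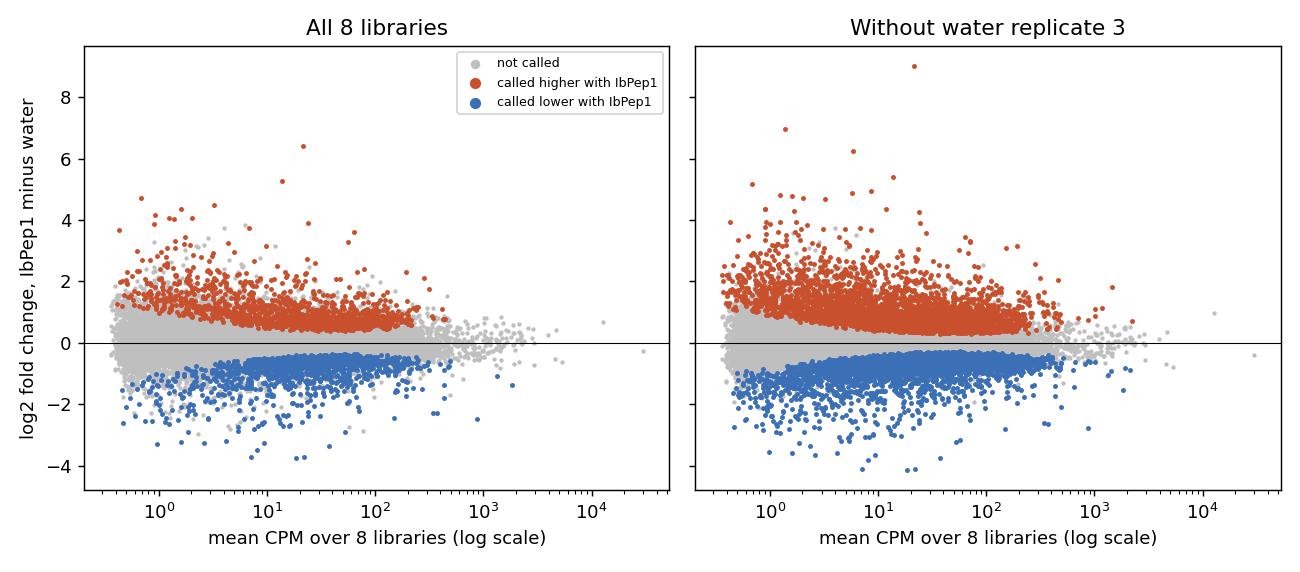
Log2 fold change (IbPep1 minus water) against mean level in CPM (log scale) for each gene tested, with all 8 libraries on the left and without water replicate 3 on the right. Coloured points are the 2519 genes called on the left, and on the right those called without water replicate 3 that were tested in both fits; the largest rises reach further from 0 than the largest falls in each panel.

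The longer list contained 4472 genes called only without water replicate 3, of which 4395 had been tested with it. In 2570 of these (58.5%) the level in water replicate 3 lay between the lowest and the highest IbPep1 library. Over all genes tested that was the case for 50.8%, while water replicates 1, 2 and 4 lay within the IbPep1 range at 40.3%, 35.3% and 36.2% of genes. Among the 2519 genes called in both fits it was so for 174 (6.91%). Both the 58.5% and the 6.91% follow from how the genes were chosen, by losing or keeping their call with that library included, and support nothing.

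How far each library lay from water toward IbPep1 was measured on genes chosen without it. For every library in turn the groups were refitted from the other 7, and on the genes then called with at least a 2-fold change its level was placed on a scale with 0 at the water mean and 1 at the IbPep1 mean. Water replicate 3 had a median position of 0.716 over 2250 genes, and 71.3% of them lay past the midpoint. It lay at 0.690 on the genes that rise with IbPep1 and at 0.788 on those that fall. Water replicates 1, 2 and 4 had medians of 0.087, -0.061 and -0.028 over 215, 156 and 178 genes, and at most 5.12% of these genes lay past the midpoint.

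The IbPep1 libraries had median positions of 0.900, 1.06, 0.835 and 0.757 in the order of their replicates, over 218, 166, 697 and 593 genes. All 4 were thus nearer to IbPep1 than to water on genes they had not helped to choose, and IbPep1 replicate 4 was the least shifted. With water replicate 3 left out as well, a choice added after the data had been seen, the positions were 0.890, 0.987, 0.939 and 0.798. Water replicates 1, 2 and 4 then lay at 0.237, -0.008 and 0.044. The median of water replicate 3, 0.716, was below that of every IbPep1 library and above that of every other water library in both versions. Each library was placed on its own genes and scale, however. The interquartile range of water replicate 3, 0.447 to 1.005, overlapped that of IbPep1 replicate 4, 0.529 to 0.949 in the first version, so their order is not settled. The labels name no batch. They name a pair of library preparation kits, NEBNext Ultra and SMARTER, but do not assign them to libraries. Why water replicate 3 lies where it does was not tested.

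**Figure D3:**
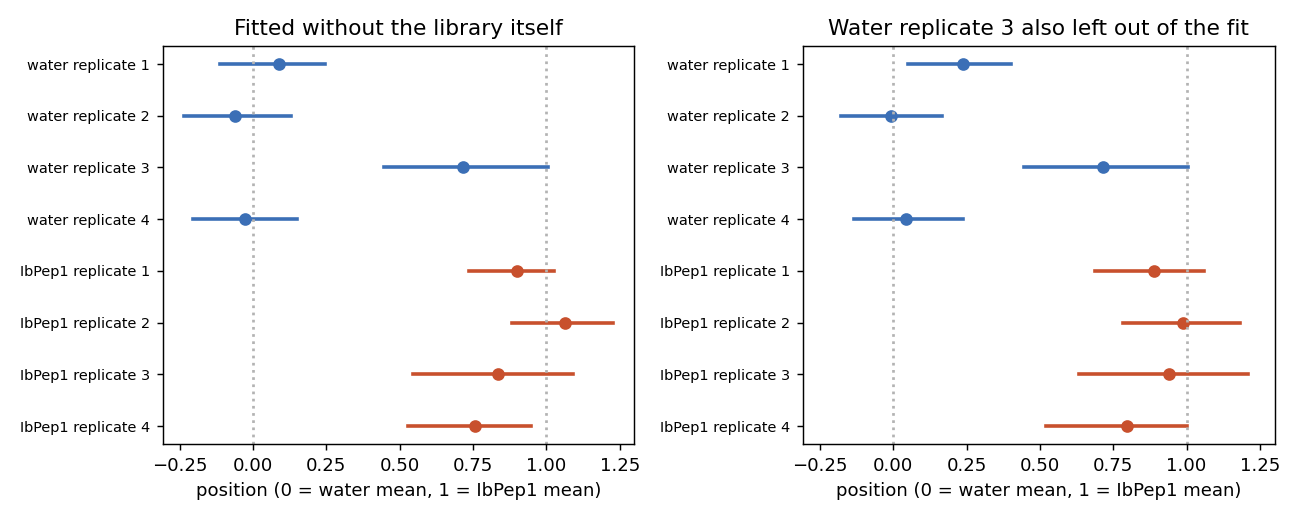
Median position (point) and interquartile range over genes (line) of each library between water (0) and IbPep1 (1), on genes called with at least a 2-fold change without that library (left) and without water replicate 3 as well (right). Water replicate 3 has its median at 0.716, the other water libraries at -0.061 to 0.237 and the IbPep1 libraries at 0.757 to 1.06.

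The named genes were those with the widest gap between the groups, measured from the nearest water library to the nearest IbPep1 library, among genes called in the same direction with and without water replicate 3. The gap was at least 1 log2 unit for 62 genes upward and 18 downward, all of them called. Without water replicate 3 it was that wide for 297 genes upward and 191 downward. Over all genes tested the groups failed to overlap in 19.9%, and over the 2519 called in 92.1%, a share that follows largely from the call. The median gap of the called genes without overlap was 0.28 log2 units.

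The widest upward gap was that of itf00g01800, with 0.170, 0.206, 0.378 and 0.323 CPM in water replicates 1 to 4. With IbPep1 it stood at 4.001, 7.99, 8.57 and 4.12 CPM. In water the gene was close to the floor in every library, at 4, 4, 9 and 7 counts, whereas the lowest IbPep1 library had 82 counts. Its log2 fold change was 4.48 (SE 0.40, 95% interval 3.59 to 5.38, adjusted p = 0.00574, edgeR's quasi-likelihood test), which is 22.4-fold. The change was 4.70 without water replicate 3, whose level was the highest of the water libraries but well below every IbPep1 library.

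The gene itf00g51140 followed, with 1.06, 0.671, 1.01 and 1.06 CPM in water. In the IbPep1 libraries it had 11.2, 22.6, 8.61 and 8.64 CPM. IbPep1 replicate 2 was the highest of all 8, and water replicate 3 lay among the other water libraries. The log2 fold change was 3.73 (SE 0.37, 95% interval 2.90 to 4.56, adjusted p = 0.00574, same edgeR test), or 13.3-fold.

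Among the genes that fell, itf03g30120 had the widest gap, with 71.5, 46.3, 48.4 and 39.3 CPM in water. Its level was 10.1, 7.21, 10.1 and 11.6 CPM with IbPep1. The lowest water library was 3.38-fold above the highest IbPep1 library on the scale used for the gap. The log2 fold change was -2.40 (SE 0.22, 95% interval -2.89 to -1.91, adjusted p = 0.00574, same edgeR test), or 5.27-fold lower.

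The gene itf03g13040 stood at 33.5, 55.5, 30.2 and 41.7 CPM in water. With IbPep1 it was measured at 8.88, 7.73, 4.02 and 10.1 CPM, lowest in replicate 3. Its log2 fold change was -2.39 (SE 0.30, 95% interval -3.06 to -1.72, adjusted p = 0.00806, same edgeR test), or 5.24-fold lower. Without water replicate 3, the lowest of the water libraries for this gene, it was -2.51. All 4 named genes kept their direction and their call in each of 16 alternative fits. That follows largely from their choice by calls and wide gaps in these same libraries, and gives no separate support.

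Levels after IbHypSysIV, on a scale common to all 12 libraries, are set beside these without a test, since both peptides share the water libraries. The gene itf00g01800 stood at 0.318 to 1.40 CPM with IbHypSysIV and 3.97 to 8.49 CPM with IbPep1. For itf00g51140 the IbHypSysIV libraries had 0.461 to 2.36 CPM and the IbPep1 libraries 8.53 to 22.4 CPM. The level of itf03g30120 with IbHypSysIV was 13.8 and 10.8 CPM in replicates 1 and 3 but 66.5 and 88.0 CPM in replicates 2 and 4. That of itf03g13040 was 14.4 to 24.9 CPM, between its IbPep1 range of 3.99 to 10.01 CPM and its water range of 29.97 to 55.1 CPM.

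**Figure D4:**
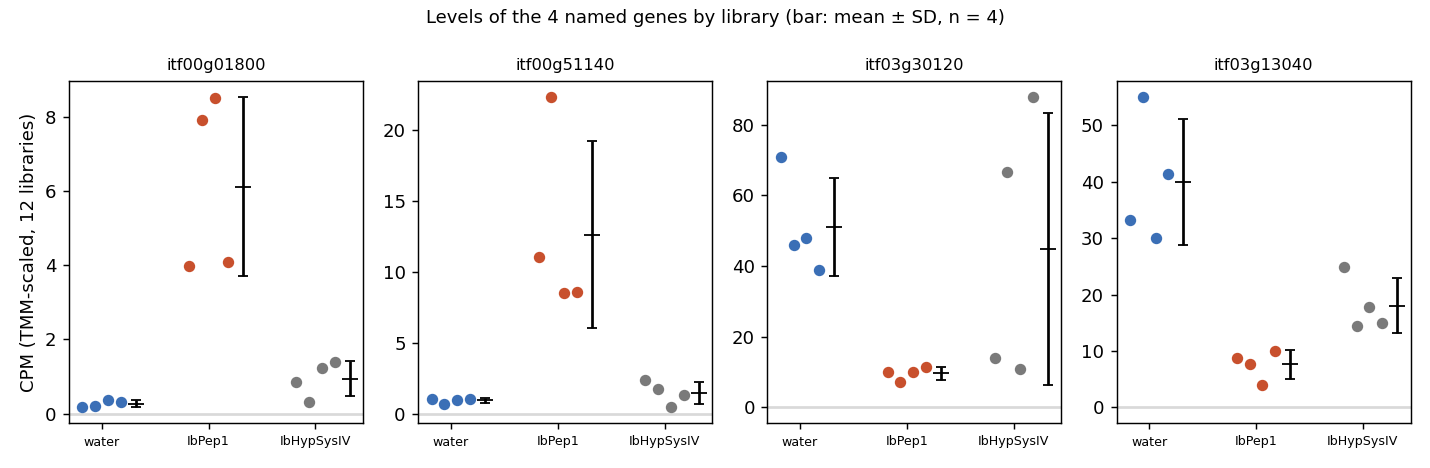
Level in CPM of the 4 named genes in each library of the 3 groups, with mean ± SD (n = 4) beside the points. No IbPep1 point overlaps a water point in any of the 4 panels, which the choice of these genes required. The gene itf03g30120 takes low and high values within the IbHypSysIV group.

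Called genes were found at all levels of expression. Their share grew with level from class to class, but was lowest among the 178 genes at 500 CPM or more. With the genes divided into 5 classes of equal size by mean level, the share called was 5.84% in the lowest class (0.360 to 2.47 CPM) and 10.1%, 11.7%, 13.6% and 14.3% in classes 2 to 5. Without water replicate 3 the same classes had 17.2%, 28.3%, 31.8%, 35.2% and 40.0% of their genes called. In the lowest class 181 genes rose and 84 fell, whereas in classes 3 and 4 more genes fell than rose (309 against 221, and 349 against 269). The excess of rises among changes of at least 2-fold lay mainly in the lowest classes, with 164 rises against 73 falls in the lowest and 158 against 101 in class 2. In classes 3 and 4 falls of that size were the more numerous, 88 against 81 and 67 against 53, and in class 5 there were 69 rises and 62 falls. Called genes of the lowest class had median changes of 2.98-fold up and 2.86-fold down, against 1.65-fold and 1.61-fold in the highest class (48.7 CPM and above). The median SE of the log2 fold change was 0.38 in the lowest class and 0.17 in the highest, so a small change was harder to call in the former. Not all of the 265 genes called in the lowest class had changed by 2-fold.

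Within the upper range the share fell again. It was 16.6% of 2447 genes at 50 to 100 CPM, 14.1% of 1230 at 100 to 200 CPM and 8.30% of 554 at 200 to 500 CPM. Of the 178 genes at 500 CPM or more, 3 were called, or 1.69%, all 3 of them lower with IbPep1 and changed by 2-fold or more, up to 5.57-fold. Their median change without sign was 0.26 on the log2 scale, compared with 0.30 at 50 to 100 CPM, and their median SE was 0.26 compared with 0.16. Without water replicate 3, 21 of the 178 were called (11.8%), 7 higher and 14 lower, against 42.0% at 50 to 100 CPM. DESeq2 called 12.4% of the 178 and 29.5% of the genes at 50 to 100 CPM, and limma-voom 1.69% and 15.9%. The most abundant leaf transcripts thus had a median change close to that of genes at 50 to 100 CPM and a larger median SE.

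Few genes had 0 counts throughout a group and at least 3 counts in every library of the other group. A single gene had 0 counts in all 4 water libraries and at least 3 counts in each IbPep1 library, and 0 genes showed the opposite. With water replicate 3 set aside the numbers were 5 and 3, and in 3 of the 5 that library itself had 3 counts or more. None of these genes was abundant enough to enter the test of all 8 libraries, so they could not add to its calls. Whether any of them entered the test without water replicate 3 was not examined. Genes that were low in water but did enter the test, such as itf00g01800, are not covered by these numbers.

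For the genes without a call, the data often limited the change to less than 2-fold. Of 20161 such genes, 13142 (65.2%) had a 95% interval of the log2 fold change that lay within 1 unit of 0, so a change of 2-fold or more lay outside it. For the other 7019 the interval reached a 2-fold change in at least 1 direction. A limit of 2-fold is wider than the median change of the called genes, 1.85-fold up and 1.73-fold down. Changes of that size are thus not excluded by it. Without water replicate 3 the interval lay within 1 unit of 0 for 10630 of 15976 genes without a call (66.5%). Within groups, the median SD of log2 CPM over genes was 0.284 in water and 0.182 without replicate 3, and 0.257 with IbPep1 and 0.183 without replicate 3. Leaving out a different library gave 0.285 to 0.293 in water and 0.244 to 0.263 with IbPep1, so in each group the spread was lowered most by setting replicate 3 aside.

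The length of the list depended on single libraries. Setting aside water replicate 1, 2 or 4 left 300, 199 and 237 genes called, and setting aside IbPep1 replicate 1, 2, 3 or 4 left 293, 218, 1813 and 1067. Of those reduced lists, 297, 197, 236, 287, 218, 1459 and 980 genes, in the same order, belonged to the 2519. Across these fits 43.3% to 54.2% of the calls were rises, compared with 50.3% with all 8 libraries. Whether each library stands for a plant of its own is not stated in the labels, and the p-values refer to the variation among these libraries, part of which may be technical.

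**Figure D5:**
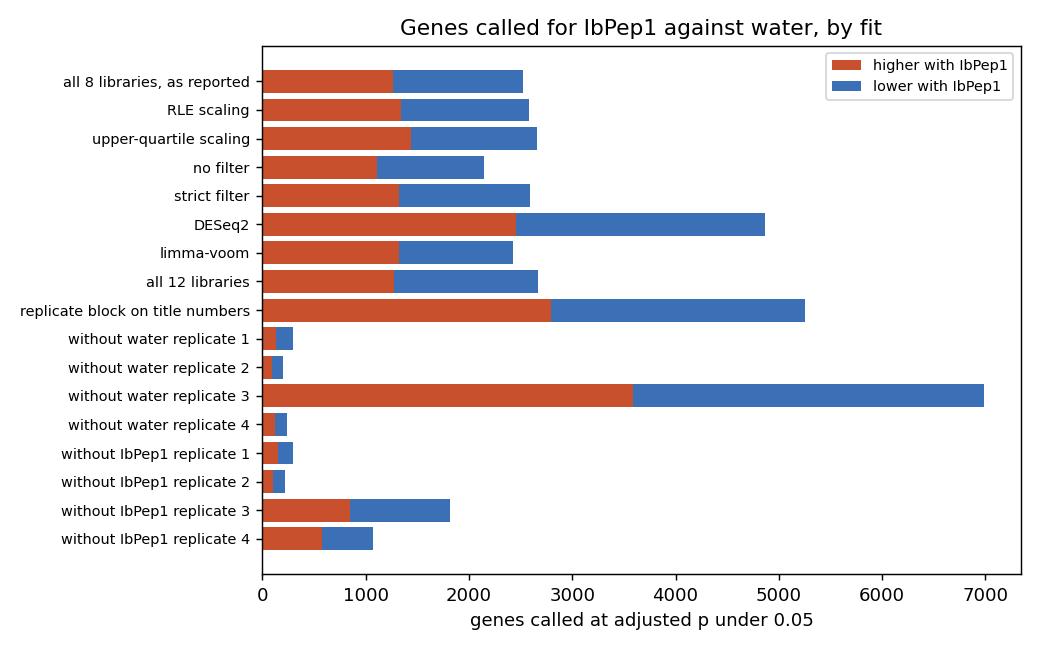
Number of genes called higher (red) and lower (blue) with IbPep1 than with water in the reported fit of all 8 libraries and in each alternative fit. The counts run from 199 without water replicate 2 to 6991 without water replicate 3, and rises make up 43.3% to 54.5% of the calls in each fit.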

How the data were processed

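The deposited values are raw counts for each gene and library, with nothing scaled. The tools are HISAT2 2.0.5, HTSeq 0.6.1 and DESeq2 1.22.2, without stated roles, per the submitters' processing notes. For genome build, annotation and strandedness the entry is: not given in the sources used here. Therefore overlapping, antisense or near-identical genes may share reads.

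Analyses used R 4.3.3. In edgeR 4.0.16, filterByExpr on the 8 libraries removed 9621 genes and kept 22680 with 99.9% of counts. They were TMM-scaled and tested across all genes with edgeR's quasi-likelihood test, group being the only term and Benjamini-Hochberg adjusted p under 0.05 the threshold. SE was the log2 fold change over the root of F. Log2 CPM used a prior count of 2. Alternatives included limma 3.58.1 (voom) and DESeq2 1.42.0. The procedure was tested on simulated counts. These held no library that departs from its group, so they do not cover the case of water replicate 3.

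Libraries within a group differed by more than sampling noise (chi-square per degree of freedom at least 13.5). This value was 85.0 to 104.7 for pairs with water replicate 3 and 65.9 to 100.9 for pairs with IbPep1 replicate 3. For the remaining pairs within a group it was 13.5 to 29.9. Replicates are numbered in accession order. Named genes needed a mean of at least 1 CPM, calls with and without water replicate 3 and no overlap, and were ranked by the gap. Without gene names, 2 per direction are printed, and gene lists written on product descriptions were not used. The members and rules were chosen with earlier results of these data known.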

Additional observations from a re-analysis of the deposited data

Results flagged for a closer look

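Within each group of 4 libraries, extreme values were sought by comparing the gap to the nearest library with the group's whole range, in 22 groups of values. Chance gives about 1 in 20, and 3 were found. Water replicate 3 stood apart from the other water libraries on the second principal component, at 62.2, and in its mean correlation with its own group, at 0.942. Water replicate 2 had the isolated low level of itf00g51140 in water, 0.671 CPM. The gene's IbPep1 libraries, all above 8 CPM, were far from this value.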

How the results depend on the processing

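The count of 2519 genes (1268 higher, 1251 lower) stayed within 1.5 times under RLE or upper-quartile scaling, no filter, a filter of 1 CPM in 4 libraries, limma-voom and a fit of all 12 libraries. It was 4871 with DESeq2 (2453 higher, 2418 lower), which held 2517 of the 2519. Leaving out 1 library gave 199 to 6991 genes, 94 to 3589 of them higher and the rest lower; the highest values came without water replicate 3. Fits without that library and 1 more, added after seeing the data, called 3358 to 8028 genes. The numbers in the titles were not used to pair the libraries in the main fit. The deviations of libraries numbered 1, 2 and 4 correlated at 0.150, -0.028 and -0.057, and not every library correlated best with its own number. So few correlations cannot decide whether libraries of the same number were handled together. A replicate block on the title numbers called 5256 genes (2792 higher, 2464 lower) with 2 residual degrees of freedom. Water replicate 3 and IbPep1 replicate 4 share their number with no library of the other group and so drop out of its estimate. The median of all genes moved by less than 0.1 log2 under every scaling. The 4 named genes passed in all alternatives, which their choice by calls and wide gaps in these libraries largely ensured. Their log2 fold changes were 4.28 to 4.82, 3.29 to 3.88, -2.51 to -2.20 and -2.70 to -2.17 in the order named, with adjusted p of at most 0.0370. At 4 libraries per group, a median SE of 0.21 limited calls of small changes.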

Other observations

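Genes with consecutive identifiers tended to share a direction. The identifiers run in steps of 10 within a prefix, and 14626 pairs of consecutive identifiers had both genes tested, leaving out the prefix itf00. Among the neighbours of genes that rose, 10.9% also rose and 4.19% fell. Among the neighbours of genes that fell, 9.43% also fell and 3.90% rose. Neighbours of genes without a call rose in 5.23% and fell in 5.74% of cases. In all, 87 pairs rose together, 81 fell together and 67 moved in opposite directions. What places consecutive identifiers together on the genome is not given in the sources used here, and whether such neighbours share reads was not tested.

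The share of genes called differed little between identifier prefixes, from 10.1% for itf09 to 12.5% for itf08. The prefix itf00 had 1677 identifiers listed, of which 790 were tested, 63 rose and 34 fell. For the other prefixes rises made up 45.6% (itf03) to 58.0% (itf10) of the calls. Both genes with the widest upward gaps carry the prefix itf00.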
